A study of Mus musculus with 6 samples.

Results

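The genes described here encode cadherins and parts of the desmosome, the anchoring junction of epithelial cells, together with the epithelial adhesion molecule Epcam. They are 10 genes taken by symbol, Cdh1, Cdh2, Cdh3, Cdh11, Dsp, Dsg2, Dsc2, Jup, Pkp2 and Epcam, out of 19057 genes named on an Illumina mouse bead array. Among the 45279 probes of the array, 21 were annotated to 9 of these genes, and Dsp had no probe named here. RNA from 6 breast tumours of FVB mice was hybridised, 1 array per tumour. In 3 knockout tumours both alleles of Cyp27b1, the enzyme that makes active vitamin D, were floxed and Cre recombinase was present (Cyp27b1 flox/flox;Cre+). In 3 control tumours both alleles were floxed and Cre was absent (Cyp27b1 flox/flox;Cre-). By its title the study deleted the gene in mammary epithelium and asked about tumour development without local vitamin D synthesis. The promoter that drove Cre, the age of the animals and what started the tumours were not given in the sources used here. Cre and the deletion came together in the same tumours, and their effects cannot be told apart. Whether the 6 samples came from separate animals was not given in the labels, so each p-value describes the spread among the samples, which may be technical.

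Classical cadherins are calcium-dependent receptors that bind the same cadherin on a neighbouring cell and are tied to actin through catenins. Cdh1 (E-cadherin) is the classical cadherin of luminal epithelium, Cdh3 (P-cadherin) that of basal and myoepithelial cells of the breast, and Cdh2 and Cdh11 are typical of mesenchymal cells. In a desmosome, desmogleins and desmocollins take the place of the classical cadherins and are joined by plakoglobin, plakophilins and desmoplakin to keratin filaments. Epcam is a surface glycoprotein of many epithelia and carcinomas that also affects cadherin-based contacts.

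A probe is called above background where its deposited detection p is below 0.05, and it was kept for testing where this held on at least 3 of the 6 arrays. Between 33.4% and 36.1% of probes were above background on an array, and the summed signal of an array lay between 10692100 and 14815000. Arrays of the same group correlated between 0.94 and 0.97 across kept probes, with knockout 1 at 0.94 with both other knockout tumours. On all arrays the single probe of Cyp27b1 stayed at background, at a normalized log2 value of 4.36 ± 0.07 in knockout and 4.34 ± 0.05 in control tumours (SD, n = 3 each). By an exact permutation test, two-sided, the difference of 0.02 had p = 0.8, and 0.1 is the smallest p that 3 against 3 tumours allow, so this probe is no check of the deletion. Of the 15885 kept probes, 9.20% passed limma's test at an adjusted p below 0.05 in either direction, and 4.14% were called higher in knockout tumours. Taking the brightest kept probe of each of 9354 genes, 10.1% were called, 4.47% higher and 5.63% lower.

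Of the 10 genes, 5 had a kept probe and could be tested. Of these, 2 rose in the knockout tumours, Cdh1 and Dsg2, where 4.47% of all genes with a kept probe did, and Pkp2, Cdh3 and Jup were not called. No gene was called lower, and the 1 with a negative difference, Cdh3, had an unadjusted p above 0.05. The median log2 difference of the 5 tested genes was 0.737, against 0.052 over all kept probes. With all 21 probes and no filter it was 0.145, against 0.0069 over all probes. Knockout and control values did not overlap for Cdh1, Dsg2 and Pkp2, all higher in knockout tumours, and 16.4% of kept probes showed that order (30.2% did not overlap in either direction). At the level of probes, 4 of the 10 kept probes were called higher, against 4.14% of all kept probes, and 6 did not overlap.

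**Figure D1:**
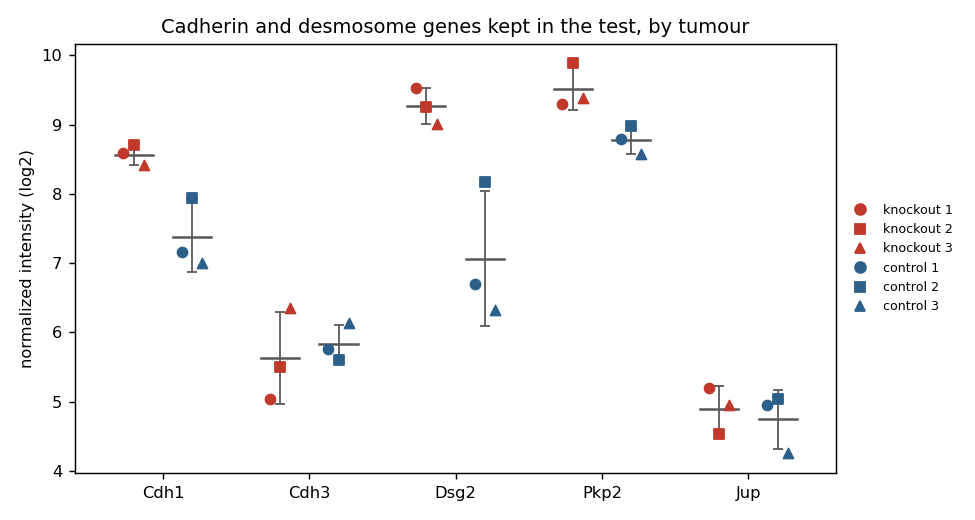
Normalized log2 intensity (vertical axis) of the 5 genes with a kept probe, each at its brightest kept probe, in knockout (red) and control (blue) tumours. Points are tumours, lines are group means and bars are 1 SD. All 3 knockout tumours lay above all 3 control tumours for Cdh1, Dsg2 and Pkp2, while the groups overlapped for Cdh3 and Jup.

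Cdh1 was higher in every knockout tumour. Its kept probe had log2 values of 8.58, 8.71 and 8.41 in knockout tumours 1, 2 and 3, against 7.16, 7.94 and 7.01 in control tumours 1, 2 and 3. The signals as deposited, before normalization, were 594.8, 479.7 and 415.6 in the knockout tumours and 233.8, 341.1 and 176.1 in the control tumours. The knockout tumours lay close together, and control 2 stood 0.86 above the mean of the other control tumours. Group means were 8.57 ± 0.15 in knockout and 7.37 ± 0.50 in control tumours (SD, n = 3 each), a log2 change of 1.20 ± 0.28 (SE, 95% interval 0.56 to 1.84) or 2.29-fold (limma, adjusted p = 0.036). The second Cdh1 probe, with values from 4.41 to 4.78, was not above background in any tumour. The call of Cdh1 was lost without control 1 (0.13), control 3 (0.10), knockout 1 (0.060), knockout 2 (0.12) or knockout 3 (0.064) and without the filter on dim probes (0.099), and the adjusted p ran from 0.015 to 0.13 over the alternatives. Without control 2 the change was 1.48, and with the authors' values it was 0.71.

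In bulk tumours, more cells of a type and more RNA per cell cannot be told apart. Some markers of luminal epithelium were higher in the same tumours. Of 10 listed, 7 were measured, 3 were called higher and 4 were not called, and their summed level (2 to the power of the log2 value) lay between 8653 and 15920 in knockout tumours and between 3073 and 8219 in control tumours. The brightest, the keratins Krt8 and Krt18, averaged 12.13 ± 0.59 and 11.17 ± 0.65 in knockout tumours and 11.20 ± 0.78 and 10.02 ± 0.67 in control tumours (SD, n = 3 each). Neither keratin was called (adjusted p = 0.24 and 0.14). Control 2 had the highest mean of luminal markers among the controls, 8.48 against 7.54 in control 1 and 7.36 in control 3, and it was also the control tumour with most Cdh1. The gap was widest for Kit (9.03, against 4.64 and 5.55), while Gata3 and Krt19 were lowest in control 2 (named after their values were seen). Its mean of basal markers was also the highest of the controls, 10.2 against 10.05 in control 1 and 9.52 in control 3. Some markers of fibroblasts and matrix were lower. Of 9 listed, 7 were measured, 4 were called lower, 3 were not called and Postn was not above background anywhere. Their summed level lay between 322.5 and 2432 in knockout tumours and between 6643 and 17090 in control tumours. Col1a1 and Dcn, the brightest, averaged 9.26 ± 1.77 and 7.25 ± 1.82 in knockout tumours and 12.61 ± 0.23 and 11.22 ± 1.51 in control tumours (SD, n = 3 each). Of the other types, none of 6 endothelial markers was kept (Cdh5, Tek and Vwf were not above background anywhere), and 2 of 6 leukocyte markers and 1 of 5 adipocyte markers were measured and not called (Ptprc, Itgam, Fabp4 and Cidec were not above background anywhere). Of 5 nerve and Schwann cell markers 2 were measured, Ncam1 fell and Sox10 had a difference of 1.98 in the other direction that was not called (adjusted p = 0.14, groups not overlapping), of 6 skin markers 2 were measured and Ivl fell, and of 5 muscle markers 2 were measured and not called. Without the filter on dim probes the calls of Kit (limma, adjusted p = 0.099), Col1a1 (0.15), Dcn (0.19) and Ivl (0.075) were lost. Those of Gata3, Ncam1, Elf5, Pdgfrb and Col3a1 were kept (0.014 to 0.038), the last 3 named after their values were seen. The part of these cell types in the differences of Cdh1, Dsg2 and the other junction genes was not tested.

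Cdh3 did not separate the groups. Its kept probe gave 5.05, 5.50 and 6.36 in knockout tumours 1, 2 and 3, against 5.76, 5.60 and 6.14 in control tumours 1, 2 and 3. The highest and the lowest value were both from knockout tumours. The log2 difference was -0.20 ± 0.34 (SE, 95% interval -0.995 to 0.60, limma, adjusted p = 0.78). The other 3 Cdh3 probes were not above background on any array. In GRCm38.p6, Cdh3 and Cdh1 are next to each other on chromosome 8. Of 8 markers of the basal and myoepithelial layer, in which Cdh3 is the typical cadherin, 6 were measured, 1 was called higher and 2 lower. Krt14, one of the brightest, rose by 1.39 (limma, adjusted p = 0.044), while the contractile genes Acta2 (-2.45, adjusted p = 0.045) and Myh11 (-3.17, adjusted p = 0.0031, named after its values were seen) fell. Without the filter the calls of Krt14 (0.14) and Acta2 (0.18) were lost and that of Myh11 was kept (0.015). The 3 not called, named after their values were seen, were Trp63 (1.55), Krt17 (0.12) and Krt5 (-0.11). The median log2 difference of the 6 was 0.006. Their summed level lay between 15030 and 30680 in knockout and between 36300 and 41110 in control tumours. Acta2, at 14.87 ± 0.05 in control tumours (SD, n = 3), was the largest part of the sum there.

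The probes of the mesenchymal cadherins Cdh2 and Cdh11 were near or below background in both groups. The brighter Cdh2 probe gave 4.64, 4.42 and 4.48 in knockout tumours, none above background, against 5.02, 4.99 and 4.93 in control tumours, of which controls 1 and 2 were above background. The groups did not overlap, but the values span about the lowest detected level of the arrays, which lay between 4.90 and 5.002. No fold is given for this probe, because control 3 was not above background either, and it was not tested with the filter. Without the filter its log2 difference was -0.47 (limma, adjusted p = 0.074), and it was -0.11 with the authors' values. The other Cdh2 probe was above background in knockout 1 alone (4.99), with a difference of -0.07. All 3 probes of Cdh11 were not above background on any array, with values between 4.29 and 4.97. A level of Cdh11 below this background cannot be compared between the groups.

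**Figure D2:**
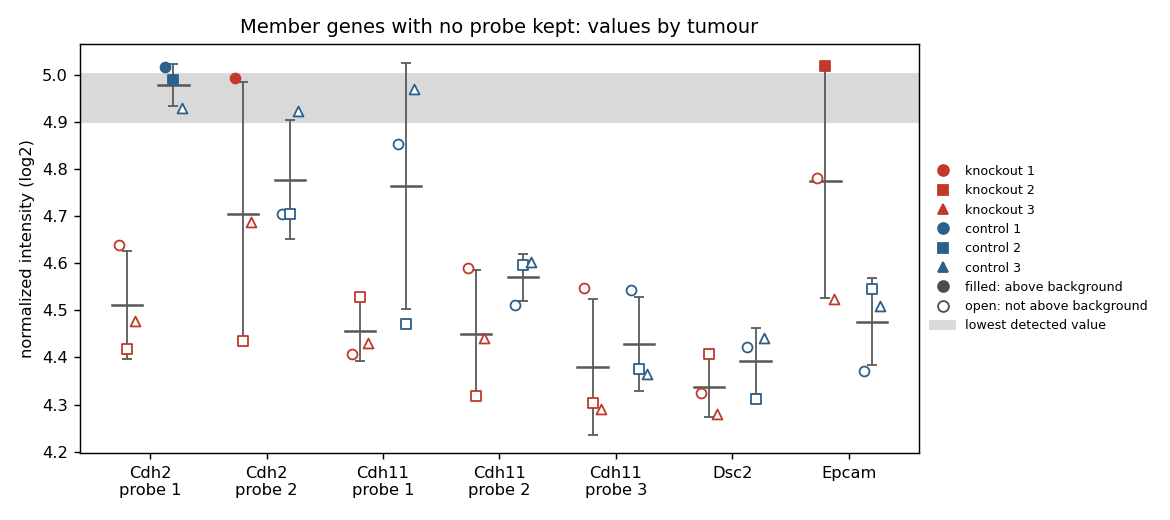
Normalized log2 intensity (vertical axis) at each probe of the 4 genes without a kept probe, in knockout (red) and control (blue) tumours, with group means (lines) and 1 SD (bars). Filled points were above background and the grey band spans the lowest detected values of the 6 arrays, 4.90 to 5.002. Of 42 values, 4 were above background, 2 of them from knockout and 2 from control tumours.

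Dsg2, the desmoglein of simple epithelia, had the largest log2 change of the 5 tested genes, and several of its probes were called. Only Dsg2 and Pkp2 had more than 1 kept probe. Its brightest probe gave 9.53, 9.25 and 9.02 in knockout tumours 1, 2 and 3, against 6.70, 8.17 and 6.32 in control tumours 1, 2 and 3. The deposited signals there were 1054, 654.8 and 583.5 in the knockout tumours and 193.2, 387.3 and 144.4 in the control tumours. As for Cdh1, control 2 was the highest control, 1.66 above the mean of the other 2. Means were 9.26 ± 0.26 in knockout and 7.06 ± 0.98 in control tumours (SD, n = 3 each), a log2 change of 2.20 ± 0.45 (SE, 95% interval 1.16 to 3.24) or 4.60-fold (limma, adjusted p = 0.024). The other 3 probes of Dsg2 gave smaller log2 changes of 1.26 (adjusted p = 0.043), 0.96 (0.032) and 0.76 (0.054, not called). At all 4 probes every knockout value lay above every control value, and the probes share one RNA per tumour, so they are not replicates. Averaged over its probes, Dsg2 changed by 1.29 ± 0.23 (SE, adjusted p = 0.016). The call was lost without control 1 (0.0995), control 3 (0.068) or knockout 2 (0.078) and without the filter (0.11), and the adjusted p ran from 0.0067 to 0.11 over the alternatives. The change was 2.75 without control 2 and 1.32 with the authors' values.

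Dsc2, the desmocollin usually found with Dsg2, had 1 probe, which was not above background on any array, at 4.28 to 4.44. In GRCm38.p6, Dsg2, Dsc2 and Cdh2 all lie on chromosome 18, with Dsc2 between Dsc3 and Dsc1, Cdh2 beside Dsc3 and Dsg2 beside Dsg3. Dsc3, named after its values were seen, was kept and had a difference of -0.15 (limma, adjusted p = 0.81), and Dsg3 and Dsc1 were not above background on any array.

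**Figure D3:**
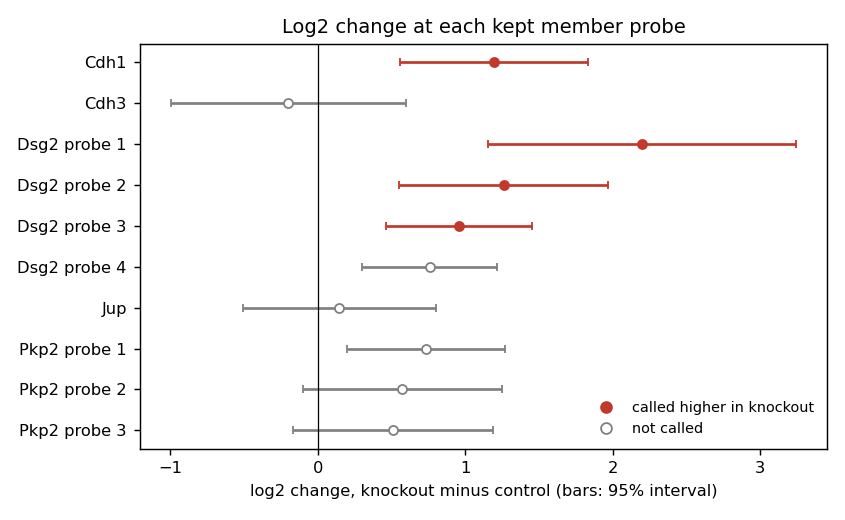
Log2 difference, knockout minus control (horizontal axis), at each of the 10 kept probes, with bars for the 95% interval and filled points for called probes. The 4 Dsg2 probes lie between 0.76 and 2.20 and the 3 Pkp2 probes between 0.51 and 0.74. The intervals of Cdh3, Jup and the Pkp2 probes other than the brightest span 0.

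In the desmosomal plaque, Pkp2, a plakophilin that links desmosomal cadherins to desmoplakin, was higher in each knockout tumour without passing the test. Its brightest probe gave 9.29, 9.88 and 9.39 in knockout tumours 1, 2 and 3, against 8.80, 8.98 and 8.58 in control tumours 1, 2 and 3. The log2 difference was 0.74 ± 0.23 (SE, 95% interval 0.20 to 1.27, limma, adjusted p = 0.093). At its other probes the groups overlapped, with differences of 0.57 (adjusted p = 0.28) and 0.51 (0.34). No alternative brought Pkp2 past the threshold, with an adjusted p between 0.054 and 0.26. Jup, plakoglobin, a catenin found in both desmosomes and adherens junctions, had a single probe, which was dim. It gave 5.19, 4.54 and 4.95 in knockout tumours, 2 of them above background, against 4.95, 5.04 and 4.25 in control tumours, 1 of them above background. The groups overlapped, and the log2 difference of 0.15 ± 0.28 (SE, 95% interval -0.51 to 0.80, adjusted p = 0.81) had no settled direction. Dsp, desmoplakin, was not analysed here.

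**Figure D4:**
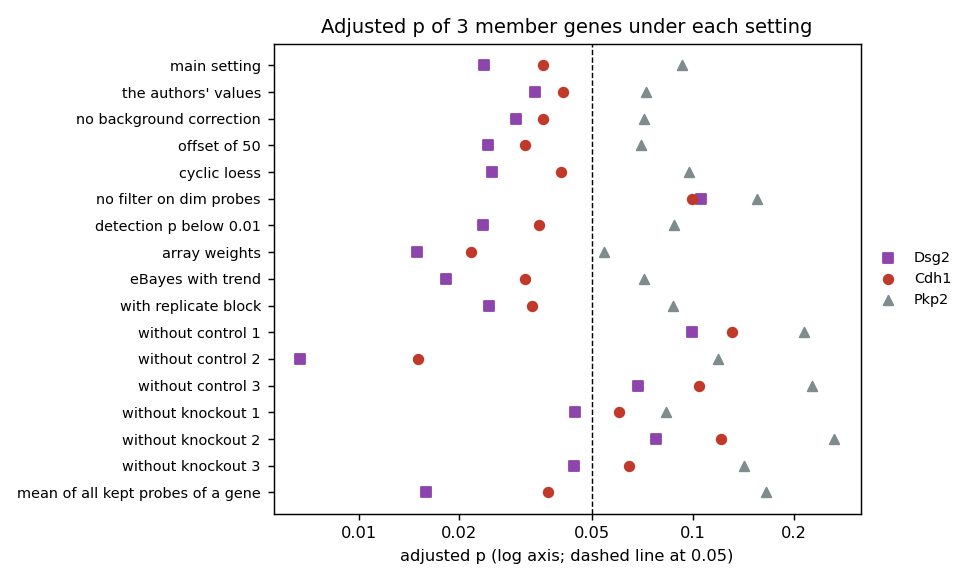
Adjusted p of Dsg2 (squares), Cdh1 (circles) and Pkp2 (triangles) on a log axis under each processing setting, with the dashed line at 0.05. Cdh1 and Dsg2 lay below the line in the main setting and above it without the filter and without control 1, control 3 or knockout 2, and Pkp2 lay above it throughout.

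Epcam was read by a single probe, which was at the edge of detection. The probe gave 4.78, 5.02 and 4.52 in knockout tumours 1, 2 and 3, of which knockout 2 was above background. In control tumours it gave 4.37, 4.55 and 4.51, none above background. The groups overlapped, and without the filter the log2 difference was 0.30 (limma, adjusted p = 0.48). A fold cannot be given, because the knockout mean lay below the lowest detected level. Promoter sequences were at hand for Jup, Epcam and Dsp. Those of the 2 genes with a probe are shown because the Snail and Zeb repressors described below recognise the E-box CAGGTG or its reverse complement CACCTG, which is in capitals. Each is the stretch of 250 bases before the start of the gene, from RefSeq on GRCm38.p6, at chr17:87635729-87635978 (plus strand) for Epcam and chr11:100397791-100398040 (minus strand) for Jup.
Epcam: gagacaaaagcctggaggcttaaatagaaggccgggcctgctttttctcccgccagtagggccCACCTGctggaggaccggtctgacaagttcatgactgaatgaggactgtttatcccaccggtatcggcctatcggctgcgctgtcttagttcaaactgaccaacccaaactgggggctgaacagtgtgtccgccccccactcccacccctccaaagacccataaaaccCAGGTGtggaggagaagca
Jup: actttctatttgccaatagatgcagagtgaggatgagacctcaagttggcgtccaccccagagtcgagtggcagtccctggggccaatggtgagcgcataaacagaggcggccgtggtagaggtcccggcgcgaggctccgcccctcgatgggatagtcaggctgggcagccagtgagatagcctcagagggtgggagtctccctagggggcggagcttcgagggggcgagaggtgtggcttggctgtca
The Epcam stretch holds CACCTG 187 bases and CAGGTG 19 bases before the start, and the Jup and Dsp stretches hold neither these nor any other CANNTG. Of 32851 such stretches, 17.2% held CAGGTG or CACCTG and 66.2% held CANNTG on either strand. A match is a description of the letters and no evidence of binding.

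Among the other genes of these junctions, the calls of each list are read against the 4.47% of all genes called higher and 5.63% called lower. The lists were chosen with earlier results of these data known, so their counts are a description. Of 13 other desmosome genes, 7 were measured, 2 rose and 0 fell, with a median log2 difference of 0.96. Pkp3, a plakophilin of epithelial desmosomes, gave 8.10, 8.11 and 7.69 in knockout tumours, against 6.14, 6.80 and 6.18 in control tumours. It rose by 1.59 ± 0.25 (SE, limma, adjusted p = 0.010), a 3.01-fold change that was 0.72 on the log2 scale with the authors' values, and it lost its call without control 1 (0.052). Pkp4, a relative found at several kinds of junction, rose by 0.96 ± 0.23 (SE, adjusted p = 0.043), and a second probe gave 0.76. Its call was lost without control 1 (0.12), control 2 (0.053), control 3 (0.11), knockout 1 (0.073), knockout 2 (0.082) or knockout 3 (0.12), as well as without the filter (0.083). The plakins Ppl and Evpl, which bind keratin filaments, had differences of 1.30 (adjusted p = 0.093) and 1.51 (0.10) that did not pass. Ppl passed without control 2 (0.040) and Evpl without knockout 3 (0.013). The desmogleins and desmocollin of stratified skin, Dsg1a, Dsg1c, Dsg3 and Dsc1, were not above background on any array. Of the skin markers, Krt1, Lor and Krtdap were likewise undetected, while Krt10 was above background on all 6 arrays and Ivl on all 3 control arrays and 1 knockout array.

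Other cadherins were mostly undetected. Of 19, 3 were measured and 11 were not above background on any array, among them Cdh5 of endothelium. Cdh23 (0.32) and Cdh6 (-0.64) were not called, and 0 of the 3 passed an unadjusted p of 0.05 in limma. Of 17 catenins, nectins and adaptors of the adherens junction, 13 were measured, 1 rose and 0 fell, with a median difference of 0.10. Ctnnal1, a relative of alpha-catenin, rose by 1.37 ± 0.32 (SE, limma, adjusted p = 0.037) and lost its call without control 1 (0.058), control 2 (0.094), control 3 (0.11), knockout 2 (0.077) or knockout 3 (0.081). The call of Ctnnal1 was also lost with the authors' values (change 0.89, adjusted p = 0.065), without background correction (0.052) and without the filter (0.12). The nectins are adhesion molecules that need no calcium. Nectin1 (-1.09, adjusted p = 0.053, above background in 1 knockout tumour) and Nectin3 (-2.01, adjusted p = 0.054) did not pass, though Nectin3 passed without knockout 1 (0.029). Both passed with cyclic loess, array weights or a trend in eBayes, while the authors' values gave smaller differences of -0.25 for Nectin1 and -1.19 for Nectin3. The catenins that bind Cdh1 directly or through a partner, named after their values were seen, were bright and had small differences. Ctnnb1 gave 10.48, 9.87 and 9.82 in knockout tumours, against 9.82, 10.55 and 9.50 in control tumours. Its difference of 0.10, that of Ctnna1 (0.31) and that of Ctnnd1 (-0.25) were not called (adjusted p = 0.89, 0.39 and 0.58).

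Several transcription factors known to repress Cdh1 fell in knockout tumours. Of 8 listed, 7 were measured, 4 fell and 0 rose, with a median log2 difference of -1.84. The groups did not overlap for any of the 7, and they did not overlap in either direction for 30.2% of all kept probes. Zeb2 gave 4.95, 5.27 and 5.71 in knockout tumours, against 8.31, 8.05 and 8.09 in control tumours. It fell by 2.84 on the log2 scale (SE 0.24, limma, adjusted p = 0.0025), although a second probe gave -0.32 and the authors' values -1.10. Zeb1 gave 5.31, 5.32 and 6.85 in knockout tumours, against 8.77, 8.92 and 9.05 in control tumours, and its change was -3.09 (adjusted p = 0.0059) or -1.49 with the authors' values. Both kept their call when any tumour was left out. Twist1 (-1.72, adjusted p = 0.038) lost its call without control 1 (0.12), control 3 (0.093), knockout 1 (0.069) or knockout 2 (0.10). Snai1 (-1.84, adjusted p = 0.046) lost it without control 1 (0.13), control 3 (0.13), knockout 1 (0.075) or knockout 2 (0.13). Neither was called with the authors' values (-0.72 and -0.73, adjusted p = 0.092 and 0.091), without background correction (0.074 and 0.075) or without the filter (0.14 and 0.17), and Snai1 was not called with an offset of 50 (0.052) or cyclic loess (0.0503). Twist2 (-3.72, adjusted p = 0.065) and Snai2 (-1.37, adjusted p = 0.11) did not pass, and Twist2 passed without control 2 (0.0092) and with array weights (0.044). Fibroblasts also express these factors, and 4 of 7 fibroblast markers fell in the same tumours, with the summed levels given above. Their part in these falls was not tested.

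Most measured transcription and splicing factors known to raise junction genes in epithelia rose. Of 12 listed, 8 were measured, 6 rose and 0 fell, with a median log2 difference of 1.73. Grhl2, a grainyhead factor that binds the Cdh1 locus, gave 8.80, 8.60 and 8.64 in knockout tumours, against 6.42, 7.21 and 5.94 in control tumours. Its change was 2.15 ± 0.32 (SE, limma, adjusted p = 0.0083), or 1.13 with the authors' values. Gata3, a luminal regulator that the marker list also holds, gave 8.84, 8.70 and 8.48 in knockout tumours, against 7.24, 6.83 and 6.95 in control tumours. Esrp1, a splicing regulator of epithelia, gave 11.94, 11.98 and 11.95 in knockout tumours, against 10.28, 10.52 and 9.72 in control tumours. Gata3 rose by 1.67 (adjusted p = 0.0047), or 0.96 with the authors' values, and Esrp1 by 1.79 (adjusted p = 0.0064). Control 2 was the highest control for Grhl2 and Esrp1 and the lowest for Gata3. Grhl1 rose by 1.81 (adjusted p = 0.013), though a second probe gave 0.70, the authors' values gave 0.54, and the call was lost without control 1 (0.060), knockout 2 (0.052) or the filter (0.052). Elf3 and Ovol2, named after their values were seen, also rose, by 1.89 and 1.09 (limma, adjusted p = 0.016 and 0.017). The authors' values gave 0.63 and 0.26. Without the filter the call of Elf3 was lost (0.069) and that of Ovol2 was kept (0.0315). Of the 3 kept probes of Elf3 only 1 was called, and the lowest gave 0.25. Esrp2 (1.55, adjusted p = 0.051) and Klf5 (0.85, adjusted p = 0.11) did not pass, and Esrp2 passed without knockout 3 (0.040), with array weights (0.049) and with a trend in eBayes (0.045). Luminal markers, 3 of 7 called higher, had the summed levels given above, and their part in these rises was not tested.

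Partners and processing enzymes of Epcam were measured although the single probe of Epcam was dim. Of 8 listed, 6 were measured, 5 were called higher and 0 lower, with a median log2 difference of 1.41, or 1.26 with Spint2 at its bound. Spint2 was kept through its knockout arrays alone, so its call is no support for the list. St14, the membrane protease matriptase, which cleaves Epcam, gave 10.08, 10.18 and 9.92 in knockout tumours, against 7.72, 8.38 and 8.01 in control tumours. Its change of 2.02 ± 0.23 (SE, limma, adjusted p = 0.0036) kept its call without any one tumour. Spint1, an inhibitor of matriptase, rose by 1.55 (adjusted p = 0.016, with 0.59 at a second probe) and lost its call without control 1 (0.060) or knockout 2 (0.061), without the filter (0.058) and as the mean of its probes (0.064). Spint2, a related inhibitor, was not above background in any control tumour and was at least 1.82-fold higher in knockout tumours (limma, adjusted p = 0.021). The authors' values gave a log2 change of 0.30 that was not called (adjusted p = 0.079). Its call was also lost without background correction (0.064), with an offset of 50 (0.0504), without the filter (0.061) and without control 1 (0.088), control 2 (0.057), control 3 (0.052) or knockout 2 (0.068). The tetraspanin Cd9 rose by 1.01 ± 0.19 (SE, adjusted p = 0.017) and lost its call without control 1 (0.066), control 3 (0.056) or knockout 2 (0.072). Cldn7, a claudin that binds Epcam, named after its values were seen, rose by 1.505 (adjusted p = 0.031) and was above background in 2 control tumours. The authors' values gave 0.40, and the call was lost without the filter (0.11). Cd44, an adhesion receptor that binds hyaluronan, was not called (-0.79, adjusted p = 0.19), and its 6 probes ran from -0.98 to 0.80 with 1 called.

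**Figure D5:**
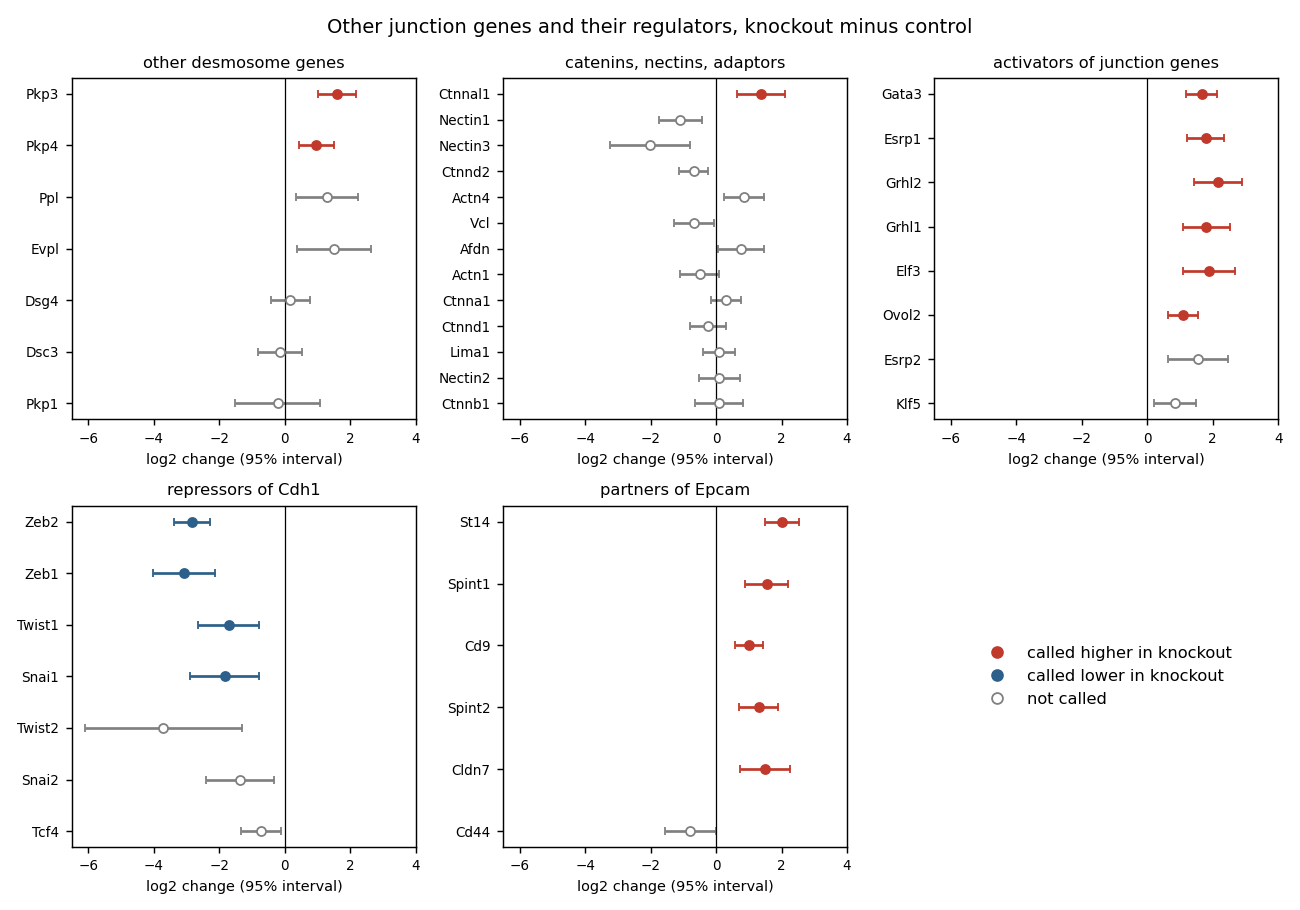
Log2 difference, knockout minus control (horizontal axis), with its 95% interval for each measured gene of 5 lists of junction genes and their regulators. Filled points are called, red higher and blue lower in knockout tumours. All 8 activators lie above 0 and all 7 repressors below it. The lists were chosen with earlier results of these data known, so this split is a description. The point of Spint2, not above background in control tumours, is the fitted value and not its bound.

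Among 9 genes of cadherin shedding and turnover, 5 were measured, 1 rose and 0 fell. Adam17, a membrane protease, rose by 0.81 ± 0.20 (SE, limma, adjusted p = 0.042) and lost its call without control 1 (0.13), control 2 (0.11), control 3 (0.065), knockout 1 (0.051), knockout 2 (0.14) or knockout 3 (0.11) and with cyclic loess (0.052). Adam10, the main sheddase of Cdh1, was not above background on any array. Adam15 (-1.004, adjusted p = 0.099) and Mmp14 (-1.27, adjusted p = 0.20) did not pass, and Adam15 passed without control 2 (0.018).

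The genes whose pattern was most like that of Cdh1 were Pde7a, a phosphodiesterase, Slc29a4, a transporter, and Ripk4, a kinase of epithelia. Over the 6 tumours their Pearson correlations with Cdh1 were 0.9968, 0.9959 and 0.9923. Ripk4 gave 10.02, 10.24 and 9.65 in knockout tumours, against 8.35, 9.10 and 8.23 in control tumours, and control 2 was again the highest control. Of 9115 genes compared, 128 had a correlation above 0.95, and the likeness is a description over 6 points in 2 groups of 3. No such genes could be named for Cdh11, which had no kept probe.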

How the data were processed

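Per the labels' protocols, RNA was taken up in Trizol, cleaned on a column with DNase, and labelled with biotin. The authors deposited, per the file headers, a table of intensity and detection p-value of every probe on every array, not normalized. They also deposited log2 values of their own, whose scaling and centring are unknown. Each column of these had a Spearman correlation of 1 with the signals of its own array and a median of 7.40 to 7.41. Per the submitters' processing notes lumi 2.6.0 was used, and the sources used here give no further step. From the signal table, 4 broken lines were left out.

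Signals were background corrected from the detection p-values, quantile normalized and log2 transformed with neqc (offset 16) in limma 3.58.1 under R 4.3.3. Background and offset set a floor, which understates changes of dim probes. Precision is limited by having 6 arrays. Kept were the 15885 of 45279 probes whose detection p lay below 0.05 on 3 or more arrays. The test of knockout minus control used lmFit and eBayes on each probe, two-sided, with p adjusted by Benjamini-Hochberg over all kept probes and a threshold of 0.05. A gene is given by its kept probe with the highest mean. A fold against a group with no probe above background is a lower bound, for which each array of that group counts at its lowest detected value or at the probe's own value, whichever is higher. The test was tested on simulated data of 15885 probes for knockout minus control. Calls were made for 92% of 100 probes given a change of 2 log2 units and for 7% of 100 probes given 1 unit. Of 107 calls, 8 fell on probes given no change. The tumours gave 1461 calls. With fewer calls the adjusted threshold was stricter in the simulation, so its shares are not the power of the test on the tumours.

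Symbols came from the platform annotation, in which 34883 probes had 1 symbol, 18 had several and 10378 had none. By gene ID 34805 matched the GRCm38.p6 gene table and 0 symbols changed. The 10 genes, the lists of junction genes and markers and the tests were chosen with earlier results of these data known. Named were all 10 genes, from each junction list up to 4 called genes of smallest p and up to 2 not called, the 2 brightest markers of luminal, basal and fibroblast cells, and the 3 genes most correlated with Cdh1. A gene outside this rule was named after its values were seen. Alternatives tried were an offset of 50, cyclic loess, no background correction, the authors' values, no filter, a detection p below 0.01, array weights, a trend in eBayes, a replicate block, leaving out each tumour, and the mean of a gene's kept probes.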

Additional observations from a re-analysis of the deposited data

How the results depend on the processing

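Under the alternatives the count of called probes, 1461 here, was 723 without the filter on dim probes and 476 to 1564 when 1 tumour was left out (476 without control 1, 568 without knockout 2, 741 without control 3). Of the 10 genes, 2 were called here, Cdh1 and Dsg2. With no filter the count was 0 (limma, 3 at an unadjusted p below 0.05), where more probes share the adjustment. When 1 tumour was left out it was 0 to 2: 0 without control 1, control 3 or knockout 2, 1 (Dsg2) without knockout 1 or knockout 3, and 2 without control 2, with fewer samples in each fit. Both genes stayed called under the other alternatives run. When 1 tumour was left out the log2 difference of Cdh3 ran from -0.56 to 0.094 (without knockout 1), and that of Jup from -0.099 (without control 3) to 0.33, with -0.0014 without knockout 1. Jup gave -0.021 with array weights, and that of Cd44 was 0.095 as the mean of its probes; none of these 3 was called. The naming rule above gave 16 called genes from the junction lists. Of these, 6 kept their call under every alternative (Zeb2, Zeb1, Gata3, Esrp1, Grhl2 and St14), and 16 kept their direction. Elf3, Ovol2 and Cldn7, named after their values were seen, are not in this count. Over 34 genes and 542 alternative values, 450 kept direction and call, 70 lost the call, 17 gained it and 5 turned direction. Cyp27b1 differed by 0.00696 to 0.0263. The median of all kept probes lay between 0.005 and 0.052 under the scalings. Tumours share replicate numbers, but the deviations of same-numbered pairs correlated at only 0.23, 0.088 and 0.061, so the numbers were not taken to pair them, although 5 of 6 tumours lay closest to their own number. With a replicate block 1381 probes and 2 of the 10 genes, Cdh1 and Dsg2, were called. Of the genes named by the rule from the junction lists, Pkp4 (limma, adjusted p = 0.083), Ctnnal1 (0.071) and Adam17 (0.073) lost their call under the block. Twist2 (0.040) and Esrp2 (0.015) gained one. Signal over background limits Cdh2, Cdh11, Dsc2, Jup and Epcam.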
